A study of Sus scrofa with 26 samples.

Results

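The genes described here make fatty acids from 2-carbon units and then lengthen or desaturate them. They were 10 in number, namely ACLY, ACSS2, ACACA, FASN, THRSP, ELOVL6, ELOVL5, SCD, FADS1 and FADS2, of 11995 genes that could be named on the array. Members were found as probes, other than controls, whose symbol, accession or description names one of these genes. This gave 41 probes for 9 genes, of which 39 passed the filter on dim signals and were tested. FADS2 had 2 probes that did not pass it, and no probe was matched to THRSP, a nuclear protein of lipogenic tissues. Of the 41 probes, 24 were named by accession, 1 by gene number, 11 by symbol and 5 by their description alone.

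De novo lipogenesis turns citrate from the mitochondria into palmitate in the cytosol, with NADPH as the reductant. In the pig, adipose tissue is the main site of this route, whereas the liver contributes little. Elongases then add carbons to palmitate and other acyl chains, and desaturases introduce double bonds, SCD in saturated chains and FADS1 and FADS2 in polyunsaturated ones.

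RNA of subcutaneous adipose tissue (SCAT) was hybridised on 26 one-colour porcine arrays, with 1 pig per array. The pigs were castrated males of the Creole breed, of the Large White breed (LW) or of their cross (F1). They were kept in thermoneutral conditions (TN, 24 °C) or under heat stress (HS), for which the labels give 30 °C and the series text a higher value, neither of which enters a calculation. There were 3 Creole TN, 5 Creole HS, 4 F1 TN, 5 F1 HS, 4 LW TN and 5 LW HS pigs. All pigs were fed freely in one climatic room, and the authors report that the HS pigs ate less once in the heat. The TN pigs were slaughtered before the temperature rose, so temperature, feed intake, slaughter day and age cannot be told apart. Littermates and pen mates were present, but the labels do not name them, so that the tests treat pigs as independent. A whole tissue piece was extracted, and fewer cells of a type and less RNA per cell cannot be told apart.

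Of 60306 spots per array that were no controls, 41314 to 46185 were well above background and 0 were saturated. Levels are log2 values of the median pixel intensity after quantile normalization between arrays, written here as log2 signal. As a measure of expression they are compared between pigs for one probe only, since different probes for one gene differed in brightness. Where probes are ranked by mean signal, this describes the probe. Each gene is represented by its brightest tested probe, and the limma test covered 44703 probes with the Benjamini-Hochberg adjustment. Adipocyte markers were bright on every array: the summed linear signal of 11 of them ran from 881915 to 1008203 in TN and from 845800 to 1005053 in HS conditions. PLIN4 was the one adipocyte marker of the list with no tested probe.

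The sequences of a few probes show what was read for ELOVL6, SCD, FADS1 and FADS2. They are given 5′ to 3′ as the scanner files hold them, and the files place none of them on a genome build. For FASN, the multifunctional synthase that builds palmitate, 5 probes were tested. The FASN probes A_72_P338038 and A_72_P647699 had the same 60 bases, so they are 1 measurement made on separate spots.

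For ELOVL6, which elongates palmitate to stearate, the probe O1689 covers the histidine box that marks the active site of the elongases, in capitals below. Of the 60305 probes on the array, 179 (0.297%) held codons for such a box on the strand as printed, in any reading frame. O1689 was the 1 probe among the 41 that did.
ELOVL6 O1689: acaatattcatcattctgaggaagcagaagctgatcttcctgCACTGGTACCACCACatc
For SCD, the delta-9 desaturase that makes oleate, the dimmest of the probes named by accession or symbol is shown, since it had one of the widest differences between temperatures. It has no capitals.
SCD A_72_P558694: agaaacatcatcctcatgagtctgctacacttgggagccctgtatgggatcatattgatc
FADS1 and FADS2 encode the delta-5 and delta-6 desaturases of polyunsaturated fatty acids and are related in sequence. The capitals below mark a run of 16 bases that their probes share.
FADS1 A_72_P441229: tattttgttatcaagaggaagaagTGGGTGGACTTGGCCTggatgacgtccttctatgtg
FADS2 A_72_P244657: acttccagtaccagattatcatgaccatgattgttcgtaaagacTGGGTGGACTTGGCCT
The FADS2 probe was well above background on 7 arrays only and was not tested. The FADS1 probe O3556 overlaps A_72_P441229 by 19 bases on the opposite strand, and the transcript it reads is not settled.

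The first comparison asked how lipogenic transcripts stood after the hot period. Levels were lower in HS than in TN conditions for ELOVL6, SCD and FASN. Of the 39 tested probes, 20 were differentially expressed (adjusted p under 0.05), all of them lower in HS conditions. Over all probes tested, 12.2% were called, 7.02% as lower and 5.16% as higher in HS conditions. The median log2 difference was -0.59 over the 39 probes and 0.00 over all tested probes. By gene, 3 of 9 brightest probes were called and 7 of 9 had a negative difference, with a median of -0.32. The median over probes leans towards SCD, which had 12 of the 39.

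ACLY cleaves cytosolic citrate to acetyl-CoA and is the entry step of the route. Its brightest probe had levels of 18.41, 18.52 and 18.20 in the Creole TN pigs and of 18.26, 18.04, 18.22, 17.62 and 15.64 in the Creole HS pigs. In F1 the levels were 17.96, 16.52, 18.43 and 17.39 in TN and 17.48, 15.92, 17.22, 18.34 and 18.37 in HS conditions. The LW pigs had 17.80, 17.54, 17.75 and 17.73 in TN and 15.58, 16.51, 15.99, 16.83 and 15.99 in HS conditions. Thus the LW groups did not overlap, as was so for 5.03% of all tested probes with HS lower, the F1 groups overlapped, and in Creole 1 HS pig stood far below the rest. Over the 3 breeds the difference was -0.82 ± 0.30 (log2, SE), with 13 of 15 HS pigs below the TN mean of their own breed, and did not pass the test (adjusted p = 0.0718). The other 2 ACLY probes gave -0.94 and -0.96, with adjusted p-values of 0.0665 and 0.0654. The brightest probe passed in 1 of 15 alternatives, with array weights (adjusted p = 0.0424).

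ACSS2, which makes acetyl-CoA from acetate, had a similar picture. Its mean level over the 11 TN pigs was 15.95 ± 0.58 (SD), and over the 15 HS pigs it was 15.45 ± 0.82 (SD), a difference of -0.55 ± 0.22 (SE, adjusted p = 0.107). In LW the 4 TN pigs had 15.81, 15.89, 15.34 and 15.43, and the 5 HS pigs 14.51, 14.82, 14.45, 15.06 and 14.69, without overlap. None of the 4 ACSS2 probes passed, with differences from -0.65 to -0.55 and a lowest adjusted p of 0.0523.

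ACACA carboxylates acetyl-CoA to malonyl-CoA, the committed step. The 11 TN pigs averaged 14.74 ± 0.46 (SD) and the 15 HS pigs 14.47 ± 0.79 (SD), and 9 of 15 HS pigs lay below the TN mean of their breed. The difference of -0.30 ± 0.23 (SE) did not pass (adjusted p = 0.426). Its 4 probes ranged from -0.39 to -0.27 and none passed the test.

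FASN was the gene with the brightest probe of the set, ranking 37 of 60305 probes by mean signal. That probe, A_72_P223177, had levels of 18.76, 18.69 and 18.70 in Creole TN and of 18.78, 18.75, 18.72, 18.60 and 18.23 in Creole HS. In F1 it had 18.60, 18.64, 18.72 and 18.53 in TN and 18.47, 18.21, 18.55, 18.65 and 18.60 in HS conditions. In LW it had 18.64, 18.63, 18.63 and 18.60 in TN and 18.33, 18.33, 17.95, 18.37 and 18.26 in HS conditions. The LW groups did not overlap, whereas the other breeds overlapped. The difference over the breeds was -0.21 ± 0.06 (SE), or 1.15-fold lower, with 11 of 15 HS pigs below their breed's TN mean (adjusted p = 0.0307). The call held in 10 of 15 alternatives. It was lost with signals scaled to the 75th percentile, as processed (adjusted p = 0.067) or median signals (0.0552), with the red blood cell score (0.67), with the adipocyte score (0.148) and without the breed term (0.0927).

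The other FASN probes showed a wider gap. The probes of identical sequence gave -0.58 and -0.59, with adjusted p-values of 0.0198 and 0.0146. A_72_P175196 and O15017, which cover the same stretch on opposite strands, so that which of the transcripts O15017 reads is not settled, gave -0.80 ± 0.18 and -0.81 ± 0.15 (SE), with adjusted p-values of 0.00503 and 0.00138. For A_72_P175196 the difference within LW was -1.10 ± 0.30 (SE, adjusted p = 0.063). O15017 lay below the TN mean of the own breed in 15 of 15 HS pigs. All 5 probes named FASN were thus lower in HS conditions, 4 of them without O15017, and the brightest had the smallest difference.

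**Figure D1:**
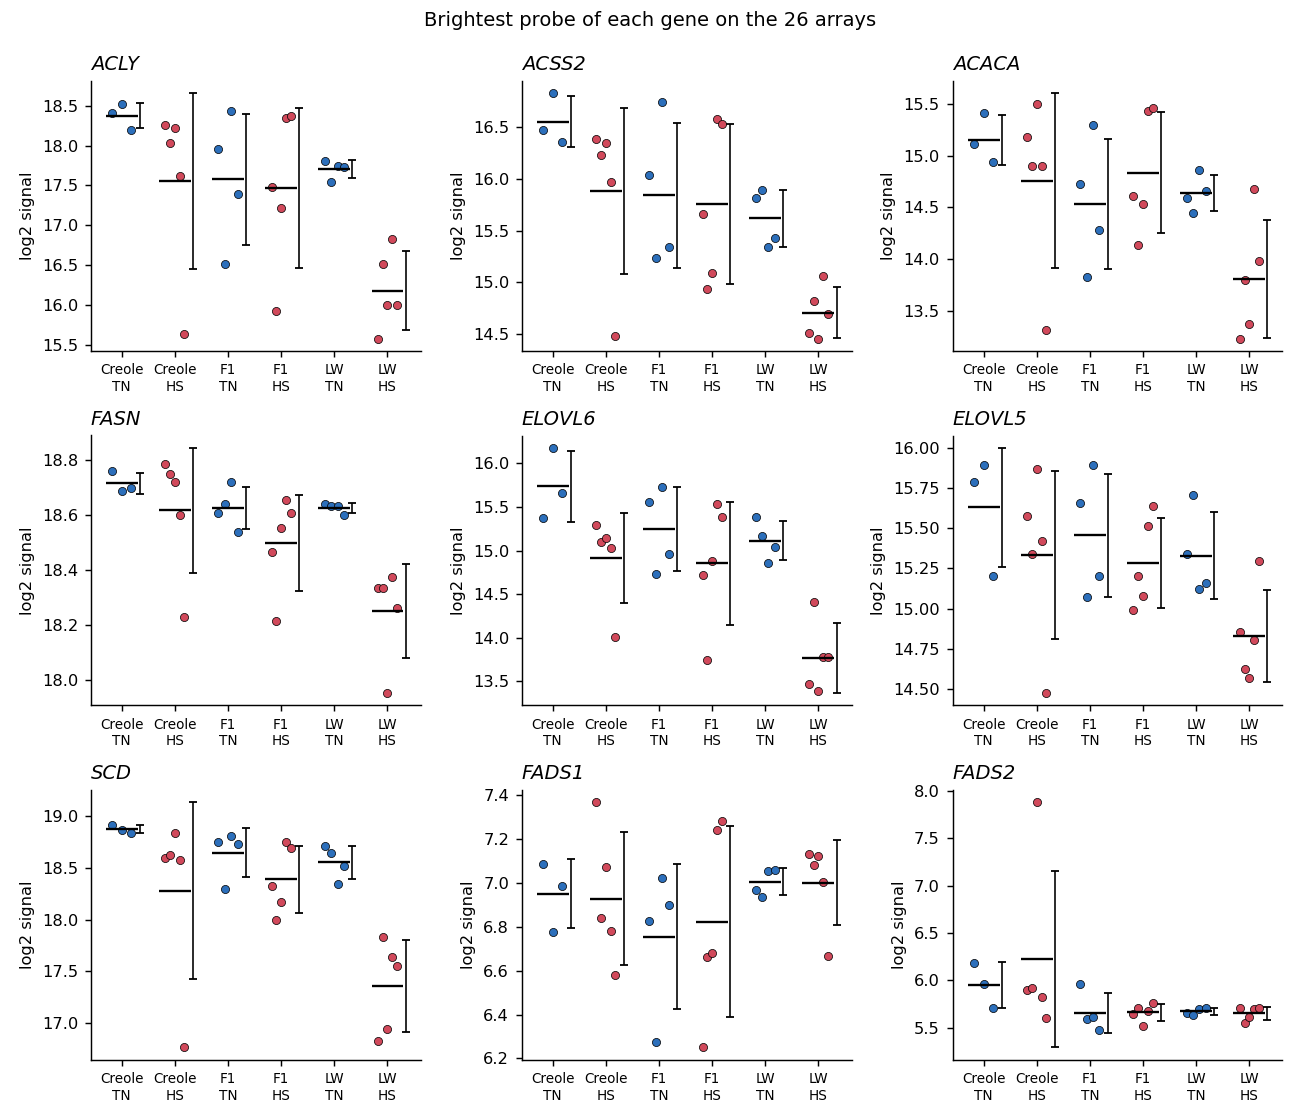
Log2 signal of the brightest probe of each of the 9 genes on 26 arrays, by breed and temperature (blue TN, red HS; y axes differ between panels). Points are pigs, horizontal lines are group means and error bars are the SD; the LW HS pigs lie below all LW TN pigs for ACLY, ACSS2, FASN, ELOVL6 and SCD, 5 of 9 genes, as they do for 5.03% of all tested probes.

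Among the elongases, ELOVL6 was lower in HS conditions on both of its probes. The brighter one had levels of 15.38, 16.18 and 15.66 in Creole TN and of 15.29, 15.10, 15.14, 15.04 and 14.01 in Creole HS. In F1 the levels were 15.56, 14.73, 15.73 and 14.96 in TN and 14.72, 13.74, 14.88, 15.54 and 15.38 in HS conditions. In LW they were 15.39, 15.17, 14.85 and 15.05 in TN and 13.47, 14.41, 13.39, 13.78 and 13.78 in HS conditions. Neither the Creole groups nor the LW groups overlapped, and in F1 they did. Over all tested probes, the HS pigs lay below every TN pig for 3.55% in Creole. The difference was -0.86 ± 0.19 (SE), or 1.81-fold lower, with 13 of 15 HS pigs below their breed's TN mean (adjusted p = 0.00508). The call held in 13 of 14 alternatives and was lost with the red blood cell score (adjusted p = 0.449). The histidine box probe O1689 gave -0.77 ± 0.17 (SE, adjusted p = 0.00543), with 14 of 15 HS pigs below.

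ELOVL5, which elongates polyunsaturated chains, had its 5 probes on both sides of the threshold. The brightest averaged 15.46 ± 0.33 (SD) over 11 TN pigs and 15.15 ± 0.42 (SD) over 15 HS pigs, with a difference of -0.32 ± 0.13 (SE, adjusted p = 0.114). The 3 probes named by symbol or gene number gave -0.37 to -0.32 and did not pass. The 2 probes named by description alone, A_72_P032441 and A_72_P054681, gave -0.44 and -0.59 and passed, with adjusted p-values of 0.0404 and 0.00752. These 2 were dim, each with a mean signal of 6.52, against 10.64 to 15.28 for the other 3. Both were well above background on 26 arrays. All 5 differences were negative. The gene passed in 3 of 14 alternatives, its brightest probe with processed (-0.45, adjusted p = 0.0446) or median signals (-0.46, adjusted p = 0.0403) scaled to the 75th percentile, and the mean of all tested probes passed too (-0.41, adjusted p = 0.0342).

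SCD was measured by 12 probes, of which 11 were lower in HS conditions. The brightest, A_72_P600413, had levels of 18.92, 18.86 and 18.84 in Creole TN and of 18.60, 18.62, 18.84, 18.58 and 16.76 in Creole HS. In F1 the levels were 18.75, 18.29, 18.81 and 18.73 in TN and 18.33, 18.00, 18.17, 18.75 and 18.70 in HS conditions. In LW they were 18.71, 18.64, 18.34 and 18.52 in TN and 16.82, 17.83, 16.95, 17.63 and 17.56 in HS conditions. The Creole groups were next to each other at 18.84 without overlapping and the LW groups were clearly apart. The difference was -0.69 ± 0.18 (SE), or 1.61-fold lower, with 13 of 15 HS pigs below their breed's TN mean (adjusted p = 0.0157). The call held in 12 of 15 alternatives and was lost with the red blood cell score (adjusted p = 0.635), with the adipocyte score (0.0886) and without the breed term (0.0512).

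The 11 SCD probes named by accession or symbol had differences from -1.05 to -0.58. A_72_P558694, printed above, gave -1.05 ± 0.28 (SE), or 2.07-fold lower (adjusted p = 0.0149). The exception was A_72_P282484, named by description alone, with -0.12 (adjusted p = 0.767).

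Across those 11 SCD probes the brighter ones had the smaller differences: Pearson's r between the mean signal and the difference was 0.79. For the 5 FASN probes it was 0.87. These correlations are descriptions, since the probes share the same arrays and some overlap in sequence, and O15017, the dimmest FASN point, may not read FASN mRNA. No spot was saturated by the scanner software's flag.

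**Figure D2:**
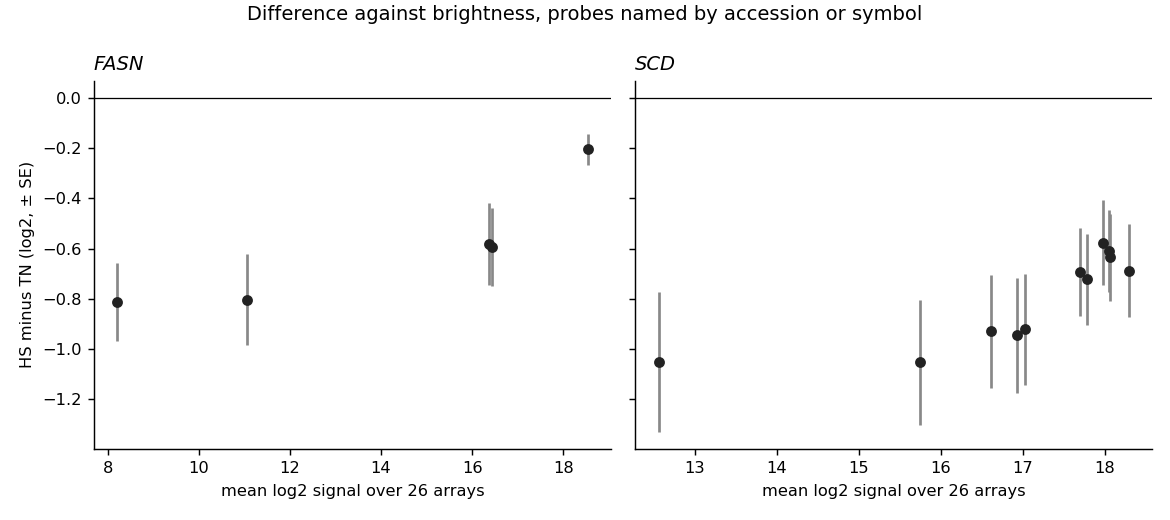
HS minus TN difference (log2, ± SE) against the mean log2 signal over 26 arrays for the 5 FASN probes and the 11 SCD probes named by accession or symbol. All points lie below 0, and the brightest probe of FASN (-0.21) and the brightest of SCD (-0.69) lie nearer to 0 than the dimmest (-0.81 and -1.05).

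FADS1 and FADS2 did not pass the test and had dim signals. The 3 FADS1 probes gave -0.03 to 0.02, with adjusted p-values from 0.788 to 0.954, and the brightest of them is named by its description alone. The FADS1 probe named by accession had a difference of -0.01 ± 0.07 (SE). The 1 tested FADS2 probe averaged 5.75 ± 0.21 (SD) over 11 TN pigs and 5.85 ± 0.57 (SD) over 15 HS pigs, a difference of 0.07 ± 0.16 (SE, adjusted p = 0.806).

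The mean levels of the FADS1 and FADS2 probes ran from 5.46 to 6.91, against a median of 5.25 for probes not well above background. The 3 FADS1 probes were well above background on 26 of 26 arrays, and their standard errors ran from 0.05 to 0.11. The tested FADS2 probe was well above background on 17 of 26 arrays, which limits what could be detected for it. FADS2 reached 7.88 in Creole HS replicate 3, against 5.48 to 6.19 in the other 25 pigs. The other 2 FADS2 probes were at 5.74 and 5.25 in that pig, within or below their range in the others. Its array also had the highest skeletal muscle marker sum (422863, against 34744 to 227052 on the others). The part of muscle RNA in this value was not tested. Without that pig the FADS2 difference was -0.05 and still did not pass.

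**Figure D3:**
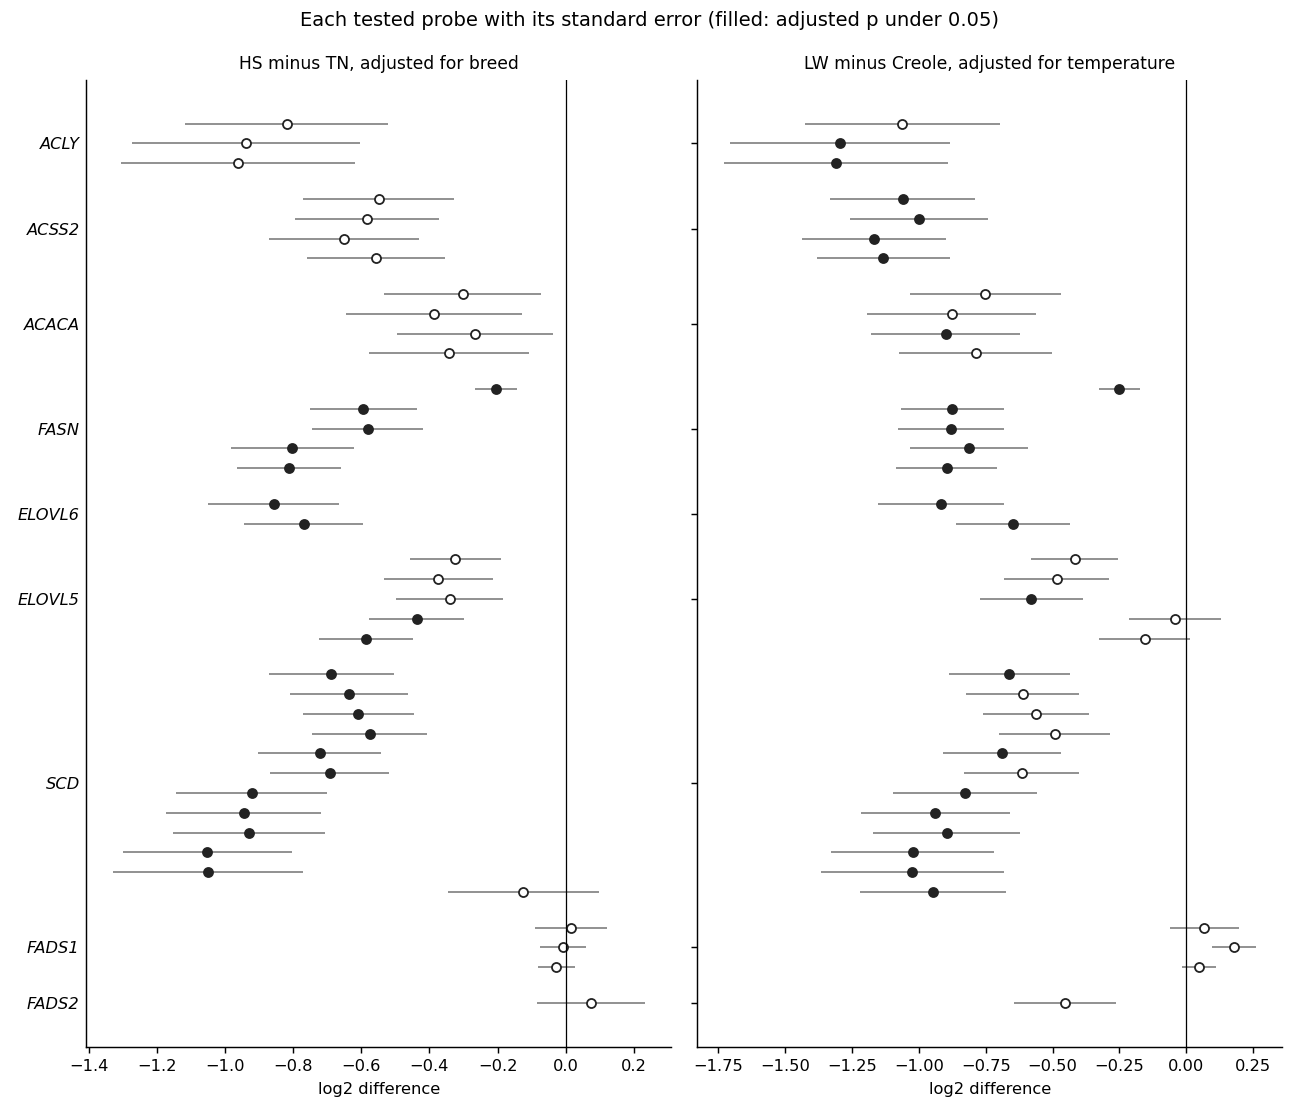
Log2 difference (point) and standard error (line) of each of the 39 tested probes for HS minus TN (left) and LW minus Creole (right), by gene and from the brightest probe at the top of each gene. Filled points passed the adjusted p threshold of 0.05, and all 20 filled points on the left and all 23 on the right lie below 0.

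The second question was whether the response differed between breeds. Within LW, 10 of the 39 probes were called, all lower in HS conditions, where 1.5% of all probes were called, 1.1% as lower and 0.403% as higher. They were 9 SCD probes, from -1.55 to -1.06, and the brightest ELOVL6 probe at -1.35 ± 0.31 (SE, adjusted p = 0.0285), or 2.55-fold lower. SCD's brightest probe was at -1.19 ± 0.29 (SE, adjusted p = 0.0395), or 2.29-fold lower. The largest LW value of a brightest probe was that of ACLY, -1.53 ± 0.48 (SE), which did not pass (adjusted p = 0.101). The LW count rested on few pigs. It fell to 0 without LW TN replicate 2, to 1 without LW HS replicate 1 or 3 or LW TN replicate 1, 3 or 4, and to 2 without LW HS replicate 4. It rose to 22 without Creole HS replicate 5, a pig of another breed that enters the shared variance. The count over the whole array moved too, from 671 to 112 without LW TN replicate 2, to 202 to 459 without the other LW pigs named, and to 1137 without Creole HS replicate 5.

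Within Creole none of the 39 probes was called by limma (background 0.0716%, with 0.0626% lower and 0.00895% higher), although 38 of 39 were negative and 12 had an unadjusted p under 0.05. Within F1 none was called (background 0.421%, with 0.309% lower and 0.112% higher), 32 were negative and 2 had an unadjusted p under 0.05. ACACA was positive in F1, with 0.30 ± 0.37 (SE, adjusted p = 0.737) against -0.83 ± 0.37 (SE, adjusted p = 0.251) in LW. A test of the difference itself, the breed by temperature interaction, called none of the 39 probes (background 0.00224%). Its lowest adjusted p was 0.897, and 3 SCD probes had an unadjusted p under 0.05. The responses of the breeds were therefore not shown to differ.

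The pigs of one group varied together over the genes. Creole HS replicate 5 lay below the Creole TN mean for 9 of 9 genes, by more than 1 log2 unit for 6 of them. ACLY deviated by -2.74, SCD by -2.11, ACSS2 by -2.08, ACACA by -1.84, ELOVL6 by -1.73 and ELOVL5 by -1.16 in this pig. The other 4 Creole HS pigs had no deviation beyond 1 log2 unit downward. In F1 the 5 HS pigs were uneven. Replicates 1, 2 and 3 lay below the F1 TN mean for 8, 8 and 9 of 9 genes, and replicates 4 and 5 for 0 and 1. The LW HS pigs were below the LW TN mean for 6 to 8 genes each. F1 TN replicate 2, a pig not exposed to heat, was below its group mean for 8 of 9 genes, with ACLY at -1.06.

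**Figure D4:**
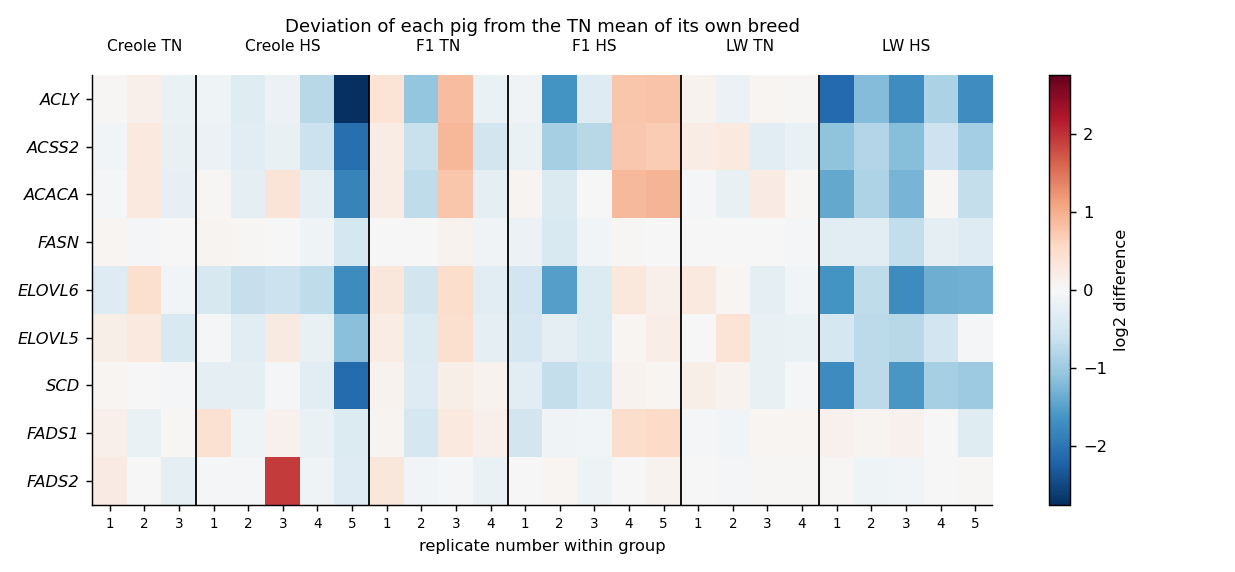
Deviation of each of the 26 pigs (columns) from the TN mean of its own breed for the brightest probe of the 9 genes (rows), in log2 units (blue below, red above). The column of Creole HS replicate 5 is the darkest blue, F1 HS replicates 4 and 5 are red for ACLY, ACSS2 and ACACA, and the LW HS columns are blue for ACLY, ACSS2, FASN, ELOVL6 and SCD.

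After the 6 group means were taken out, the levels of the genes moved together over the 26 pigs. For the 21 pairs without FADS1 and FADS2, Pearson's r ran from 0.59 to 0.93 with a median of 0.77. ACACA and ACLY had the highest (r = 0.93). The 15 pairs with FADS1 or FADS2 ran from 0.17 to 0.63. Without Creole HS replicate 5 the ranges were 0.40 to 0.90 and 0.04 to 0.59. These values are descriptions over pigs that share slides, normalization and, in part, pens and litters.

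Outside the 10 genes and the pathway list, 10083 named genes were ranked by the correlation of their residuals with the mean standardized residual of the 9 genes over 26 pigs. Among the 5 highest were UQCR10 (r = 0.92), a subunit of respiratory complex III, PANK3 (r = 0.91), a pantothenate kinase of coenzyme A synthesis, ANXA4 (r = 0.90), an annexin, and JPT1 (r = 0.89). Without the 2 pigs farthest from the median of the mean residual, the r of these 4 genes ranged from 0.79 to 0.89. None of the 4 passed the limma test for HS against TN, with differences from -0.21 to -0.07 and adjusted p-values from 0.123 to 0.64.

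The third comparison set LW against Creole, adjusted for temperature. Levels of ACSS2, FASN, ELOVL6 and SCD were lower in LW on the brightest probes, 4 of 9 genes. Of the 39 probes, 23 were called, all lower in LW, where 14.3% of all probes were called, 7.43% as lower and 6.89% as higher. Over 12 alternatives the count ran from 0, with the adipocyte score as a covariate, to 31. The median log2 difference was -0.81 over the 39 probes, -0.66 over the 9 brightest probes and 0.00 over all tested probes. All 4 ACSS2 probes were lower in LW, the widest at -1.17, and the brightest gave -1.06 ± 0.27 (SE, adjusted p = 0.011), or 2.09-fold lower. All 5 FASN probes were lower, from -0.90 to -0.25, and the brightest gave an adjusted p of 0.0278, or 0.178 with signals scaled to the 75th percentile, and passed in 10 of 14 alternatives. Both ELOVL6 probes were lower, by -0.92 ± 0.24 (SE, adjusted p = 0.0112) and -0.65 ± 0.21 (SE, adjusted p = 0.0419).

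ACLY was lower in LW on 2 of 3 probes, with -1.30 and -1.31 (adjusted p = 0.0347 and 0.0364). Its brightest probe gave -1.06 ± 0.36 (SE), with an adjusted p of 0.0506, and passed in 6 of 14 alternatives. SCD passed on 8 of 12 probes. Among them was A_72_P282484, named by description alone and dim (mean signal 7.04), with -0.95 (adjusted p = 0.0213). The brightest SCD probe gave -0.66 ± 0.23 (SE, adjusted p = 0.049). This SCD call was lost in 20 of 26 fits that each left out 1 array (highest adjusted p = 0.105) and held in 7 of 14 other alternatives. ACACA passed on 1 of 4 probes, A_72_P305844 (-0.90, adjusted p = 0.0316), and its other 3 probes gave -0.88 to -0.75. ELOVL5 passed on 1 of 5, A_72_P508419 (-0.58, adjusted p = 0.0435), whereas its 2 probes named by description gave -0.04 and -0.15 and its other 2 gave -0.48 and -0.42. FADS1 and FADS2 did not pass, with 0.07 ± 0.13 and -0.45 ± 0.19 (SE) on their brightest probes. Without Creole HS replicate 3 the FADS2 value was -0.21, and with processed signals scaled to the 75th percentile it was -1.02 and passed (adjusted p = 0.0488), 1 of 12 alternatives. The 3 FADS1 values were positive (0.05 to 0.18).

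Already in TN conditions, the 4 LW pigs lay below all 3 Creole pigs for 5 of the 9 brightest probes, namely ACLY, ACSS2, ACACA, FASN and SCD, and for 7.62% of all tested probes. For ACACA the Creole TN pigs had 15.11, 15.42 and 14.94 and the LW TN pigs 14.59, 14.44, 14.86 and 14.66. For SCD the lowest Creole TN pig was at 18.84 and the highest LW TN pig at 18.71. In HS conditions the ranges overlapped through Creole HS replicate 5. Without this pig the number of probes called in LW against Creole was 33. It was 10 without Creole HS replicate 3, 11 without LW HS replicate 3, 12 without Creole HS replicate 1, 13 without Creole HS replicate 2, Creole TN replicate 2 or LW HS replicate 1, 14 without Creole HS replicate 4 and 15 without Creole TN replicate 1, with 4823 to 6115 called over the whole array in these 8 fits, against 6400 with all pigs.

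F1 was compared with the midpoint of the parental breeds. None of the 39 probes was called by limma (background 0.00671%, with 0.00447% lower and 0.00224% higher), and none had an unadjusted p under 0.05. The lowest adjusted p was 0.611, and 3 of 39 values were negative. The median difference was 0.20 over the 39 probes and 0.13 over the 9 brightest probes. The brightest probes gave 0.13 ± 0.31 for ACLY, 0.15 ± 0.23 for ACSS2, 0.15 ± 0.24 for ACACA, 0.01 ± 0.06 for FASN, 0.20 ± 0.20 for ELOVL6, 0.10 ± 0.14 for ELOVL5 and 0.28 ± 0.19 for SCD (log2, SE). Those of FADS1 and FADS2 were negative, with -0.18 ± 0.11 and -0.23 ± 0.16 (SE).

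The same comparisons were made for other genes of the pathway, 1 brightest probe each, of which 56 of 74 listed genes could be tested. In HS conditions 12 were lower and 2 higher, where 7.02% of all probes were called as lower and 5.16% as higher. Those that supply citrate were lower in 4 of 6. PDHB, a subunit of pyruvate dehydrogenase, had -0.76 ± 0.19 (SE, adjusted p = 0.0105), and SLC25A1, the mitochondrial citrate carrier, had -0.63 ± 0.19 (SE, adjusted p = 0.0287). CS, citrate synthase, had -0.33 ± 0.05 (SE, adjusted p = 0.000449), and PC, pyruvate carboxylase, had -0.16 ± 0.04 (SE, adjusted p = 0.00746). CS was below the breed's TN mean in 15 of 15 HS pigs. PDHA1 (-0.08) did not pass.

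Genes that supply NADPH were lower in 5 of 7. ME1, the cytosolic malic enzyme, had -1.30 ± 0.25 (SE, adjusted p = 0.00141), a wider difference than that of any brightest probe of the 9 genes. PGD, a dehydrogenase of the pentose phosphate pathway, had -0.49 ± 0.09 (SE, adjusted p = 0.000955). IDH1, cytosolic isocitrate dehydrogenase, had -0.37 ± 0.09 (SE, adjusted p = 0.00839), and TKT, transketolase, had -0.35 ± 0.07 (SE, adjusted p = 0.00114). TALDO1 (-0.25) and IDH2 (-0.06) did not pass.

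None of the 3 carboxylase partners (ACACB, MID1IP1 and MLYCD) passed. Of the 6 tested genes of other elongases and the elongation cycle 2 were lower, TECR, which catalyses the last step of the cycle (-0.41, adjusted p = 0.0062), and ELOVL7 (-0.22, adjusted p = 0.0323). None of the 7 other desaturases and electron donors, and none of the 6 genes of fatty acid activation, passed. The 6 thioesterases of the list had no tested probe.

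Among 21 regulators, 2 were higher and 1 lower, a share near the 12.2% called over all probes. IRS1, the insulin receptor substrate, was higher by 0.29 ± 0.08 (SE, adjusted p = 0.0188), with 0 of 15 HS pigs below their breed's TN mean. THRA, a thyroid hormone receptor, was higher by 0.24 ± 0.05 (SE, adjusted p = 0.00572). USF2 was lower by -0.12 ± 0.04 (SE, adjusted p = 0.0357). SREBF1, a transcription factor that drives lipogenic genes, averaged 10.63 ± 0.44 (SD) over 11 TN pigs and 10.36 ± 0.38 (SD) over 15 HS pigs, with a difference of -0.28 ± 0.16 (SE, adjusted p = 0.256). MLXIPL, the carbohydrate response factor, gave -0.19 ± 0.13 (SE, adjusted p = 0.371), and PPARG gave 0.12 ± 0.08 (SE, adjusted p = 0.341).

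**Figure D5:**
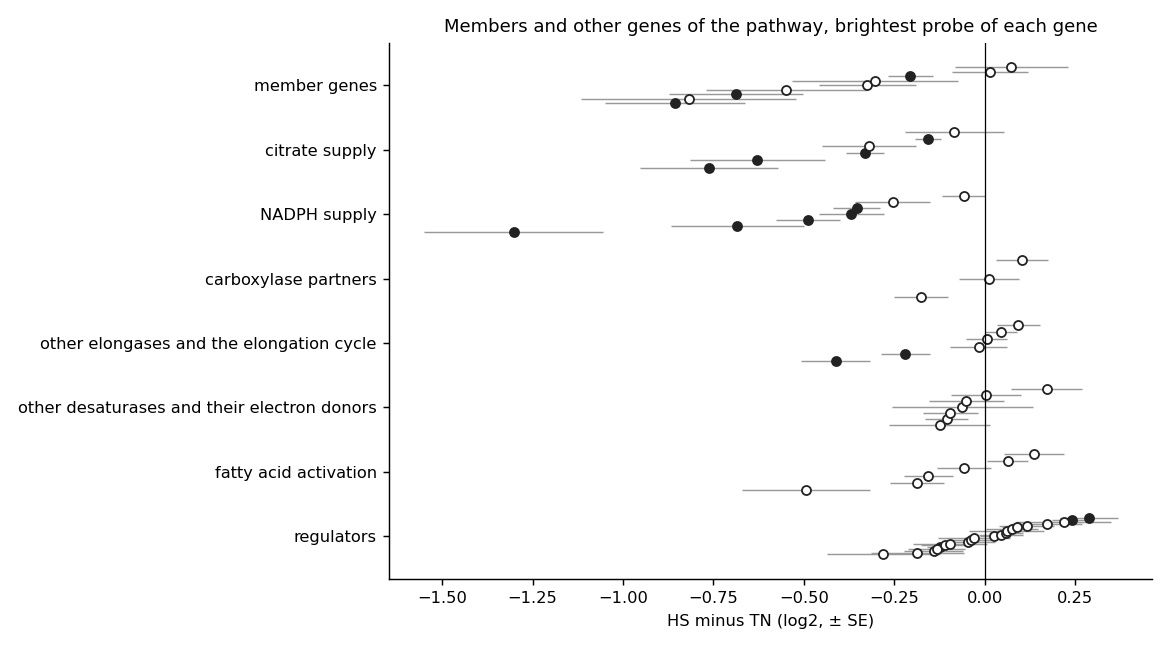
HS minus TN difference (log2, ± SE) of the brightest probe of each gene, for the 9 genes with a probe and for 56 other genes of the pathway by role. Filled points passed the adjusted p threshold of 0.05; the filled points of citrate and NADPH supply all lie below 0, and ME1 (-1.30) is the lowest.

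In LW against Creole, 15 of these 56 genes were lower and 4 higher, where 7.43% of all probes were called as lower and 6.89% as higher. Citrate supply was lower in 5 of 6 and NADPH supply in 5 of 7, with TALDO1 at -0.70 (adjusted p = 0.00112), ME1 at -0.96 (adjusted p = 0.0337) and SLC25A1 at -0.88 (adjusted p = 0.0123). IDH2 was higher in LW by 0.23 (adjusted p = 0.0401). SCD5, another delta-9 desaturase, was higher by 0.50 (adjusted p = 0.0113), in the opposite direction to SCD. The regulators USF1 (-1.13, adjusted p = 0.000135) and MLXIPL (-0.49, adjusted p = 0.0354) were lower, and INSIG2 (0.29, adjusted p = 0.0167) and IRS1 (0.40, adjusted p = 0.00887) were higher. CYB5A, the electron donor of desaturases, was lower by -0.85 (adjusted p = 0.00243).

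Markers of other cells moved with temperature and are given beside these results. Of 6 tested red blood cell markers 3 were lower in HS conditions, HBB by -0.85 (adjusted p = 0.011), HBZ by -0.65 (adjusted p = 0.00285) and EPB42 by -0.38 (adjusted p = 0.0293). Their summed linear signal ran from 5930 to 7899 in TN and from 4944 to 8753 in HS conditions. HBA1 was among the listed markers with no tested probe. With the mean of these markers as a covariate, none of the 39 probes was called for HS against TN by limma (lowest adjusted p = 0.252), and 267 probes were called on the whole array. The difference was then -0.38 for ELOVL6, -0.24 for SCD and -0.08 for FASN, and that of ACLY, ACSS2 and ACACA turned positive (0.03, 0.08 and 0.36). The LW against Creole count was 27 of 39 with this covariate.

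Of 12 fibroblast markers 5 were higher in HS conditions (COL1A1, COL1A2, COL3A1, COL6A3 and DCN, by 0.25 to 0.42), with sums of 361142 to 903627 in TN and 601919 to 1084395 in HS conditions. Of 11 adipocyte markers 1 was higher, ADIPOQ by 0.16 (adjusted p = 0.0384), and 1 was lower, CIDEA by -0.43 (adjusted p = 0.00023). With the adipocyte mean as a covariate 6 of 39 probes were called for HS against TN and 0 for LW against Creole, where 2387 and 280 probes were called on the whole array. In LW against Creole the adipocyte markers CIDEA (-0.31) and LEP (-1.23) were lower, and 5 fibroblast markers were higher. The part of tissue makeup in the lipogenic differences was not tested beyond these values.

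Arrays lay on 5 slides, each with TN and HS pigs, and slide 1 held 1 TN pig only. The breed-adjusted difference was negative on 5 of 5 slides for ACLY, ACSS2, FASN, ELOVL6 and SCD. For ACACA and ELOVL5 it was negative on 4 of 5, and for FADS1 and FADS2 on 3 of 5. The share of all probes negative on 5 of 5 slides was not computed. The difference ran from -1.45 to -0.24 for ELOVL6 and from -1.34 to -0.37 for SCD. For ACSS2 it ran from -1.24 to -0.09 and for FASN from -0.39 to -0.09. With the slide as a fixed block 20 of 39 probes were called for HS against TN, 13 for LW against Creole and 1 within LW.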

How the data were processed

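RNA of SCAT from 26 pigs was measured on Agilent one-colour arrays. The 10 genes, the pathway list and the marker lists were chosen with earlier results of these data known. Scanner files deposited by the authors hold the intensity of each spot (median, mean, background median and processed signal) from Feature Extraction 10.10.1.1, not scaled between arrays, and flags coded 0 or 1, used as given. The value table deposited by the authors holds log2 quantile-normalized values and was used only as an alternative. The authors fitted random effects of pen, slaughter day and parents, which the labels do not give, so they were not used here.

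Median intensities were log2 transformed and quantile normalized, without background subtraction. Non-uniform spots were left out, and a probe was tested if well above background on at least 8 arrays. Without background subtraction, differences of dim probes are understated. Probes were named by accession, gene number, symbol or synonym (RefSeq, Sscrofa11.1); 34591 of 60306 spots had no name. Models of breed plus temperature, and of the 6 groups, were fitted with limma 3.58.1 in R 4.3.3 (eBayes with trend, Benjamini-Hochberg over 44703 probes), and were tested on simulated data. Each gene was represented by its brightest tested probe; its other probes were given by count, direction and range. The pathway genes past the threshold, and the 5 named genes most correlated with the set, could be named too. A few genes and probe sequences that this rule covers are not reported here. All arrays were scanned on 1 day. The number of arrays limits the precision. Where nothing says that samples came from separate pens or litters, p-values measure only the spread between these pigs.

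Alternatives were 75th percentile scaling, normexp background correction, the value table, filters on dim probes, eBayes without trend, array weights, slide blocks, marker scores as covariates, no breed term, other probes of a gene and leaving out each array. Scaling of the median signal without quantile normalization was added after seeing the data.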

Additional observations from a re-analysis of the deposited data

Results flagged for a closer look

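The gap of a pig to its nearest neighbour was set against the range of its group (Dixon's criterion). Of 45 gene and group combinations with at least 4 pigs, 9 held a pig with a wide gap. Chance gives such a gap in about 1 of 20 independent groups. The genes moved together over the pigs, so the 45 combinations are not independent and the count was not tested against chance. Creole HS replicate 5 was low for 5 genes, with ACLY at 15.64 (next 17.62), ACSS2 at 14.48 (next 15.97), ACACA at 13.31 (next 14.90), ELOVL6 at 14.01 (next 15.04) and SCD at 16.76 (next 18.58). FADS2 in Creole HS replicate 3 was high at 7.88, against 5.92 for the next pig. FASN in LW HS replicate 3 was low at 17.95 (next 18.26). SCD in F1 TN replicate 2 was low at 18.29 (next 18.73), and FADS1 in LW HS replicate 5 was low at 6.67 (next 7.01). In Creole HS replicate 5 the red blood cell score was -0.34 and the skeletal muscle score -1.27, against -0.29 to 0.14 and -0.51 to 2.65 in the other Creole HS pigs. The adipocyte score (-0.0086, against 0.0075 to 0.34), the fibroblast score (0.27, against -0.29 to 0.13) and the endothelial score (-0.05, against -0.37 to -0.08) also lay outside the range of those pigs, and the macrophage, T cell and keratinocyte scores within it. Their part in the low values was not tested.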

How the results depend on the processing

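With the red blood cell score as a covariate, 0 of 39 probes were called for HS minus TN and 0 within LW, and with the adipocyte score 6, 0 within LW and 0 for LW minus Creole. Array weights gave 17 within LW, and the slide as a fixed block 1 within LW and 13 for LW minus Creole. Leaving out 1 array gave 17 to 27 calls for HS minus TN, 0 to 22 within LW and 10 to 33 for LW minus Creole. Counts of 0 for F1 minus mid-parent, within Creole, within F1 and the interaction stayed at 0 in every alternative.

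The sign turned in these cases, none of them past the threshold. With the red blood cell score, HS minus TN became 0.36 for ACACA, 0.029 for ACLY and 0.077 for ACSS2, and within LW 0.055 for ACACA, 0.20 for FADS1 and 0.36 for FADS2. With the adipocyte score, LW minus Creole became 0.091 for ELOVL5 and 0.091 for FADS2, and within LW 0.14 for FADS1 and 0.34 for FADS2. FADS1 HS minus TN became -0.0065 as the mean of its probes and -0.0080 for the accession probe. Within LW, FADS1 became 0.071 with 75th percentile scaling, 0.0060 with normexp, 0.0094 with array weights, 0.059 and 0.0034 with the slide as a fixed and a random block, 0.051 as the mean of probes and 0.11 for the accession probe. Scaling without quantile normalization, chosen after seeing the data, gave 0.043 for FADS1 and 0.014 for FADS2 within LW. Leaving out 1 array moved FADS1 from -0.038 to 0.061 for HS minus TN and from -0.036 to 0.080 within LW, and FADS2 from -0.046 to 0.11 and from -0.036 to 0.0038. The cause was not tested.

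HS minus TN passed for ELOVL6 in every alternative but the red blood cell score. FASN lost it without F1 HS replicate 2, F1 TN replicate 3 or LW TN replicate 1, 2 or 3 (adjusted p up to 0.0586). The tested FADS2 probe was above background on 17 of 26 arrays, which limits it. No paired analysis was possible because the replicate numbers were given in accession order and pair no pigs.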
